A study of Mus musculus with 2 samples.

Results

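Immediate early genes are a small group of regulators whose transcripts appear within minutes of a stimulus and need no new protein synthesis. The 10 genes described here were taken by name: Fos, Fosb, Fosl2, Jun, Junb and Jund of the AP-1 family, Egr1, Nr4a1, Atf3 and Zfp36. Of these, 9 were matched to a row among the 21216 gene identifiers of the count tables. Junb was not analysed here.

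The cells were mouse muscle stem cells, the resident progenitors of skeletal muscle, sorted 1 per well into 384-well plates and profiled by a modified CEL-Seq2 protocol. This method counts the 3′ ends of polyadenylated transcripts. Freshly isolated cells, labelled quiescent, were not cultured. The 3 cultured groups had spent 96 hours in DMEM with 1 mM pyruvate, fetal bovine and horse serum, chick embryo extract, bFGF and an antibiotic mixture, and differed only in the sugar: 25 mM glucose (high glucose), 5 mM glucose (low glucose) or 10 mM galactose. Neither a genotype, strain or age nor the number of mice or cultures behind a group is stated in the sources used here. Each condition filled 6 rows of 1 plate: plate 1 held freshly isolated and high glucose cells, and plate 2 held low glucose and galactose cells. The labels name 1 sample per plate, each condition was thus measured once, and no difference between conditions was tested.

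After filtering, 102 freshly isolated, 113 high glucose, 120 low glucose and 121 galactose cells were kept, with a median of 2536, 6747, 13371 and 14496 gene counts per cell. Gene counts per count of the ERCC spike-ins, synthetic RNAs listed beside the genes, were 19.63 in the freshly isolated pool and 60.23, 50.38 and 51.89 in high glucose, low glucose and galactose. All 10 muscle stem cell markers examined were detected, among them Pax7 at 119.7 and Myod1 at 2446 counts of each 1000000 gene counts (CPM) in the freshly isolated pool. Markers of other cell types were also present in that pool, with summed levels of 176 CPM for 8 endothelial genes and 1091 CPM for 4 fibro-adipogenic genes, against 68.72 and 135.2 CPM in high glucose. Of the fibro-adipogenic level, 872.9 CPM was Col3a1, while Pdgfra was not analysed here and Dcn was at 0 in both pools. The plates shared 200 cell barcodes, which name wells and not cells.

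AP-1 is a pair of basic leucine zipper proteins, usually 1 Fos and 1 Jun protein, that binds DNA at TGACTCA and related sites. Growth factor and stress signalling through the MAP kinases activates Srf with its Elk partners at Fos and Egr1, and Creb-type factors at cyclic AMP response elements, while Zfp36 shortens the life of AU-rich messenger RNAs. In muscle stem cells these genes are known as markers of the first response to injury and also as genes induced while tissue is being dissociated.

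Values are given on 2 scales. CPM divides a gene's summed counts by all gene counts of the pool. Counts per 1000 spike-in counts use the spike-ins as the yardstick instead, and therefore keep differences in total RNA yield between wells, on the assumption that each well received the same amount. Ratios have exact 95% intervals that cover counting error only, and a gene was called lower or higher at a ratio of 0.5 or less or of 2 or more, where the mean CPM of both pools was 50 or more. The 6 plate rows of a condition show the spread within a plate and are not replicates.

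As a share of all gene counts, each of the 9 measured genes was lower in the 3 cultured pools than in freshly isolated cells, Jun by less than 2-fold, whereas per spike-in count Jun was higher in all 3 and Jund about level. Low glucose and galactose cells lay on the other plate, so that culture and plate cannot be told apart for them. The 9 measured genes summed to 7011 CPM in freshly isolated cells, against 1623 CPM in the high glucose pool, 1469 CPM with low glucose and 1447 CPM with galactose. Per 1000 spike-in counts the sums lay closer together, at 137.6 against 97.77, 73.98 and 75.06. In high glucose over freshly isolated cells, the comparison made within plate 1, 7 of the 8 genes that passed the minimum level were at least 2-fold lower in CPM, against 12.4% of all 3848 genes tested. None was at least 2-fold higher, against 18.2%. Nr4a1, at 18.03 CPM in high glucose, passed the minimum only through the freshly isolated pool, so its lower call rests partly on the filter. The plate rows of both conditions did not overlap for the same 7 genes, against 8.84% of all genes lower in this way. The median log2 ratio was -2.58 for the 8 genes and 0.25 for all genes. Markers of other cell types moved with this difference, as given above. The 10 muscle stem cell markers did so too, with summed levels of 6540 CPM in freshly isolated and 2073 CPM in high glucose cells. Of these 10, 7 were at least 2-fold lower and 1 at least 2-fold higher (12.4% and 18.2% of all genes). Without the wells that held at least 3 markers of a single other cell type (7 freshly isolated and 4 high glucose), the ratios of the 8 genes ran from 0.0489 to 0.528.

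On the spike-in scale the genes separated into groups. Fosb, Egr1, Nr4a1 and Zfp36 were still at least 2-fold lower in high glucose, 4 of 8 against 2.78% of all genes. Fosl2, Jund, Jun and Atf3 were not, with ratios of 0.806, 1.162, 1.606 and 0.695. The rows did not overlap per spike-in count for Zfp36 only, against 1.3% of all genes. None of the 8 was at least 2-fold higher, although 80.9% of all genes were, and the median log2 ratio was -0.98 for the genes and 1.87 for all genes.

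**Figure D1:**
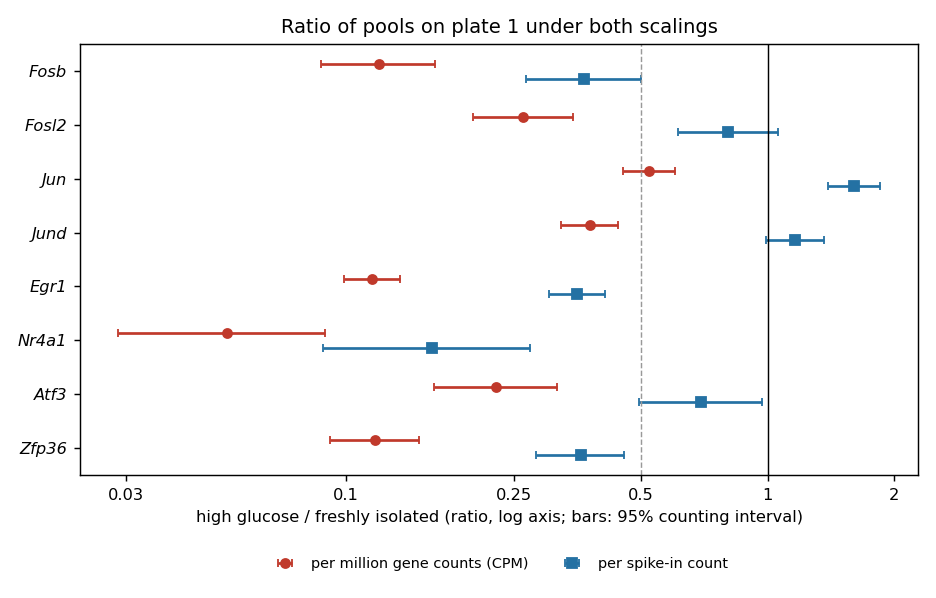
Ratio of high glucose over freshly isolated pools for the 8 genes that passed the minimum level, on a log axis, as CPM and per spike-in count, with exact 95% counting intervals. The CPM ratios run from 0.0523 for Nr4a1 to 0.523 for Jun, and per spike-in count only Jun and Jund lie above 1.

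Promoter sequence is shown for Nr4a1, Fosb and Zfp36, 3 of the 4 genes that were at least 2-fold lower on both scales, beside Jun, which had the CPM ratio nearest 1, and Fos, the founding member of the family. Each is the 250 bases upstream of the start, 5′ to 3′ on the gene's strand, from RefSeq on GRCm38.p6. Capitals mark matches to the motifs searched.
Nr4a1, chr15:101266596-101266845, plus strand: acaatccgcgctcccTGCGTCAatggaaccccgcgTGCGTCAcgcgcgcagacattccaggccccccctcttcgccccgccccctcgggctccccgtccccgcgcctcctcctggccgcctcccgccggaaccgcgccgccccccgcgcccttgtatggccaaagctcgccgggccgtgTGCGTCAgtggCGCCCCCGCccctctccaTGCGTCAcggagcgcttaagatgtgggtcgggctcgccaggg
Fosb, chr7:19310046-19310295, minus strand: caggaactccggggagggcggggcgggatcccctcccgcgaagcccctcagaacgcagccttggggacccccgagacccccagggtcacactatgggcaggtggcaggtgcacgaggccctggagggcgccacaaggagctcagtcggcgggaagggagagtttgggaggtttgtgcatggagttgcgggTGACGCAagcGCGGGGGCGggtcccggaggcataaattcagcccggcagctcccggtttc
Zfp36, chr7:28379229-28379478, minus strand: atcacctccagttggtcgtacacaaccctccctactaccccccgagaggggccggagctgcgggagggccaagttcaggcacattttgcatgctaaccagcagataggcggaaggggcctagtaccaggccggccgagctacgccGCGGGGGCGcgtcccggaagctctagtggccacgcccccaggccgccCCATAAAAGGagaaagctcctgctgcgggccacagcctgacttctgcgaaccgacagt
Fos, chr12:85473640-85473889, plus strand: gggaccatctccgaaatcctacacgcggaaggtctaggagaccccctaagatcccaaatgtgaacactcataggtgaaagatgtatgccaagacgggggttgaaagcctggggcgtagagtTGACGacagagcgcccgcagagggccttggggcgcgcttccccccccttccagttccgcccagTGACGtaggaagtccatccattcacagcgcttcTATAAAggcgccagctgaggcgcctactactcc
Jun, chr4:95052223-95052472, minus strand: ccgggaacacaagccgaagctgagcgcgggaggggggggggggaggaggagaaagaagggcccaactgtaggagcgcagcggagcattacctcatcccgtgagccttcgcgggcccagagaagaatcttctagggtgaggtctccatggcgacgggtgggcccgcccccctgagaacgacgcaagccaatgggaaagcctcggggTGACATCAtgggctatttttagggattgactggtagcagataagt

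Sequences were found for 8 of the 9 measured genes and compared with 32851 promoters of the same length, on both strands. The cyclic AMP response element in the form TGCGTCA was present in 1.75% of all promoters and in Nr4a1, with 4 copies, and Fosb, with 1. Its reverse complement holds the shorter TGACG, which was found in 17.8% of promoters and in Fos, Fosb, Nr4a1 and Atf3. The Egr-type site GCGGGGGCG was found in 2.57% of promoters and in Fosb, Fosl2, Nr4a1 and Zfp36. This site is made of G and C only. These genes' windows held 68.8%, 64.4%, 74.4% and 64.8% G and C, against a median of 52.4% over all promoters. The 2.57% is not matched for this. A CArG box, the binding site of Srf, was found in 1.47% of promoters and, in this window, in Zfp36, where it started 58 bases before the transcription start. The TATAAA box (12.4% of promoters) was found in Fos, 33 bases before the start. Jun held TGACATCA (2.93% of promoters), a form added to the search after its promoter had been read. Neither the full TGACGTCA (1.55%) nor the AP-1 site TGACTCA (4.46%) was found in any of the 8. A match is a string of letters in this window and not a measured binding site.

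Among the Fos proteins, which need a Jun partner to bind DNA, Fosb and Fosl2 both had freshly isolated rows above the high glucose rows in CPM, and overlapping rows per spike-in count. Fosb stood at 545.6 CPM in the freshly isolated pool, 65.34 CPM with high glucose, 16.72 CPM with low glucose and 14.74 CPM with galactose. The freshly isolated rows ranged from 316.7 to 1167 CPM and the high glucose rows from 40.93 to 113.1, so they did not overlap on this scale. The ratio of high glucose over freshly isolated cells was 0.12 (95% interval 0.087 to 0.163) in CPM and 0.367 (0.267 to 0.4999) per spike-in count.

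Fosl2, also called Fra-2, is a longer lived Fos protein. It had 432.9 CPM in freshly isolated cells, against 113.8, 105.5 and 86.46 CPM in high glucose, low glucose and galactose. Its freshly isolated rows (253.3 to 585.1 CPM) lay above its high glucose rows (83.31 to 158.3 CPM), and the row ranges of the 3 cultured pools overlapped. High glucose over freshly isolated cells gave 0.263 (0.2 to 0.345) in CPM and 0.806 (0.614 to 1.06) per spike-in count, an interval that includes 1.

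Fos itself, the founding member of the family, was nearly absent from the counts. It had 4 counts in all, each in a different freshly isolated cell, which is 14.08 CPM (95% interval 3.84 to 36.05). All 3 cultured pools had 0 counts. The annotation used for counting is not named in the sources used here, so whether Fos reads were lost at that step could not be checked. The exact 95% interval of the ratio of high glucose over freshly isolated cells reached up to 0.485 in CPM and up to 1.49 per spike-in count, which includes no difference.

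The Jun proteins differed from each other. Jun, the protein that pairs with Fos and is phosphorylated by JNK, had 1119 CPM in freshly isolated cells, against 585.8, 691.4 and 714.7 CPM in high glucose, low glucose and galactose. Its high glucose rows (474.9 to 748.1 CPM) overlapped the freshly isolated rows (612.8 to 1558 CPM), and the ratio was 0.523 (0.454 to 0.604). Per 1000 spike-in counts the order was turned: 21.97 in freshly isolated cells against 35.28, 34.83 and 37.09, a ratio in high glucose of 1.61 (1.39 to 1.85).

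Jund, a Jun protein that is present in resting cells as well, had 1059 CPM in freshly isolated cells, against 401.1, 404.2 and 428.4 CPM in the cultured pools. The cultured levels were nearly equal, and the rows of high glucose (316.6 to 527.9 CPM) lay below those of freshly isolated cells (838.6 to 1222 CPM). On the spike-in scale Jund had 20.8 counts per 1000 in freshly isolated cells and 24.16, 20.36 and 22.23 in the others. The ratio in high glucose turned from 0.379 (0.324 to 0.443) in CPM to 1.16 (0.9935 to 1.36), so the direction of Jund depended on the scale.

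Egr1, a zinc finger factor switched on by MAP kinase signalling, had 2270 CPM in freshly isolated cells, 261.4 CPM with high glucose, 171.8 CPM with low glucose and 130.2 CPM with galactose. The rows of freshly isolated cells (1151 to 3083 CPM) lay above those of high glucose (139 to 389 CPM). The ratio was 0.115 (0.0987 to 0.134) in CPM and 0.353 (0.303 to 0.411) per spike-in count. Before thinning, Egr1 was counted in 94.12% of freshly isolated cells.

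Nr4a1, an orphan nuclear receptor also called Nur77, had 344.9 CPM in freshly isolated cells, against 18.03, 8.65 and 5.40 CPM in high glucose, low glucose and galactose. The CPM ratio of high glucose over freshly isolated cells was 0.0523 (0.0287 to 0.0892), which is 19.14-fold lower and the lowest of the 8 ratios. Only 16, 15 and 11 counts stood behind the cultured values. Per spike-in count the ratio was 0.16 (0.0882 to 0.274).

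Atf3, a stress-induced bZIP factor that dimerises with Jun proteins, had 313.3 CPM in freshly isolated cells, against 70.98, 34.6 and 36.84 CPM in the cultured pools. Its ratio in high glucose was 0.227 (0.161 to 0.316) in CPM and 0.695 (0.495 to 0.971) per spike-in count. Zfp36, the RNA-binding protein tristetraprolin, had 911.6 CPM in freshly isolated cells, against 107, 35.75 and 29.97 CPM in high glucose, low glucose and galactose. Its ratio in high glucose was 0.117 (0.0918 to 0.149) in CPM and 0.36 (0.282 to 0.457) per spike-in count, and its rows did not overlap on either scale. Jun, Jund, Atf3 and Zfp36 each overlap another annotated gene on the opposite strand. Of these partners, Gm11175 at Jund had 2 counts under its own name. Reads of such partners could not be told apart without knowing how strand was used in counting.

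**Figure D2:**
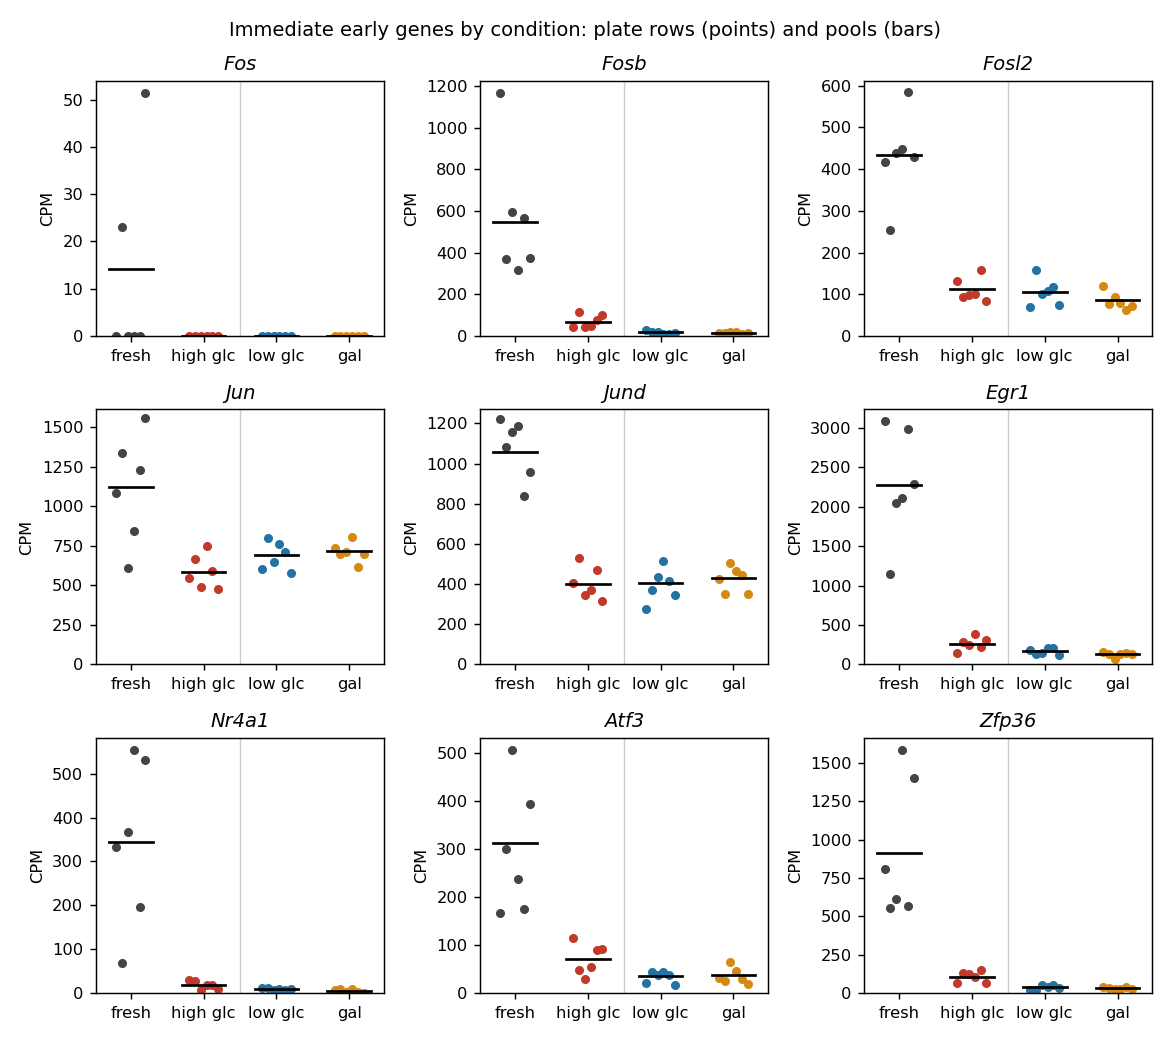
CPM of each measured gene in every plate row, 6 rows per condition, with the pool level marked. The freshly isolated rows lie above the high glucose rows in every gene but Fos and Jun.

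Sugar was compared within plate 2, between galactose and low glucose. Only Fosl2, Jun, Jund and Egr1 passed the minimum level there, and 0 of the 4 was called, as were 0% of all 3997 genes lower by this rule. Egr1 had a ratio of 0.758 (0.64 to 0.897), Fosl2 of 0.819 (0.662 to 1.01), Jun of 1.03 (0.957 to 1.12) and Jund of 1.06 (0.958 to 1.17). The Egr1 interval excluded 1, but its rows overlapped (70.86 to 160.2 CPM in galactose, 121.9 to 211.1 in low glucose). Of the genes under the minimum, Fosb had a ratio of 0.881 (0.511 to 1.52), Nr4a1 of 0.625 (0.26 to 1.46), Atf3 of 1.07 (0.748 to 1.52) and Zfp36 of 0.838 (0.579 to 1.21).

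Low glucose and galactose can be compared with high glucose only across plates, so that sugar and plate cannot be told apart. In low glucose over high glucose, 2 of 6 genes tested were at least 2-fold lower, against 1.75% of all 4067 genes: Atf3 with 0.487 (0.337 to 0.706) and Zfp36 with 0.334 (0.239 to 0.465). In galactose over high glucose, Egr1 with 0.498 (0.416 to 0.597) and Zfp36 with 0.28 (0.2 to 0.39) were called, against 2.83% of all 4096 genes. Atf3 and Zfp36 passed the minimum only through their high glucose levels of 70.98 and 107 CPM. They had 34.6 and 35.75 CPM in low glucose and 36.84 and 29.97 CPM in galactose. Their lower calls thus rest partly on the filter. The rows did not overlap for Zfp36 in either comparison, against 2.95% and 5.08% of all genes. Fosb had ratios of 0.256 and 0.225 with rows that did not overlap, below the minimum mean level. Jun and Jund were close to equal or higher in CPM on plate 2, with ratios of 1.18 and 1.01 in low glucose. Per spike-in count these ratios were 0.987 (0.89 to 1.1) and 0.843 (0.741 to 0.96). On that scale Atf3 and Zfp36 were at least 2-fold lower in low glucose, against 5.11% of all genes. Egr1, Atf3 and Zfp36 were so in galactose, against 5.81%.

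Several other values moved with this difference between plates. Summed endothelial markers were 68.72 CPM in high glucose and 8.65 and 7.86 CPM in low glucose and galactose, and Fabp4, an endothelial lipid binding protein, was counted in 21 freshly isolated, 19 high glucose, 1 low glucose and 0 galactose cells. Summed fibro-adipogenic markers were 135.2, 39.21 and 31.44 CPM, and smooth muscle and pericyte markers 190.4, 72.65 and 61.4 CPM. Mature myofibre markers were 22.53, 10.38 and 10.81 CPM, and immune markers 7.89, 2.88 and 8.84 CPM. Not every list was lower on plate 2. Glial markers were 10.14, 10.38 and 13.75 CPM, tenocyte markers 7.89, 10.38 and 9.33 CPM, and muscle stem cell markers 2073, 2139 and 2168 CPM. Wells with at least 3 markers of a single other cell type numbered 7 in freshly isolated cells, 4 in high glucose and 0 on plate 2. Without those wells, Zfp36 had ratios of 0.357 in low glucose and 0.299 in galactose over high glucose. Atf3 had 0.518 in low glucose and Egr1 0.51 in galactose, so that Zfp36 alone passed the 2-fold limit among genes that reached the minimum mean level. Below that level, Fosb had 0.269 and 0.237 in low glucose and galactose, and Nr4a1 0.501 and 0.313. The part of other-type RNA in the remaining wells was not tested.

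Because cells of plate 2 were counted more deeply, shares of cells with a count were compared after drawing 1000 counts from each cell. Egr1 was then counted in 82.35% of freshly isolated cells (95% interval 73.55 to 89.19), 22.32% of high glucose cells (15 to 31.16), 15% of low glucose cells (9.14 to 22.67) and 14.88% of galactose cells (9.06 to 22.49). Fosb was counted in 31.37%, 6.25%, 0% and 0.83%. Zfp36 was counted in 50%, 14.29%, 5.83% and 1.65%. The 0 of 120 low glucose cells for Fosb speaks only of cells drawn to 1000 counts, where the exact 95% interval reaches up to 3.03%. Before thinning 24 of these 120 cells (20%) had a Fosb count.

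Jun shares were alike, at 50%, 47.32%, 45% and 42.98%, while its mean level was higher in freshly isolated cells. The counts were uneven there: the variance over the mean of Jun after thinning was 2.51 in freshly isolated cells and 0.94, 1.19 and 1.35 in the others. The same ratio in freshly isolated cells was 3.6 for Egr1, 2.03 for Zfp36, 1.91 for Nr4a1, 1.69 for Fosb and 1.41 for Jund. It was 1.02 for Fosl2 and 1.09 for Atf3, where 1 is what counting noise alone gives. In high glucose it was 1.39 for Egr1, 1.4 for Zfp36, 1.24 for Atf3 and 0.95 for Fosb. The ratio also depends on the mean, which for Egr1 was 2.37 in freshly isolated and 0.31 in high glucose cells. For Nr4a1, 7 of 102 freshly isolated cells held more than 50% of its 98 counts. No sorted cell type without these genes was in the plates, so no background share from free RNA can be given.

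**Figure D3:**
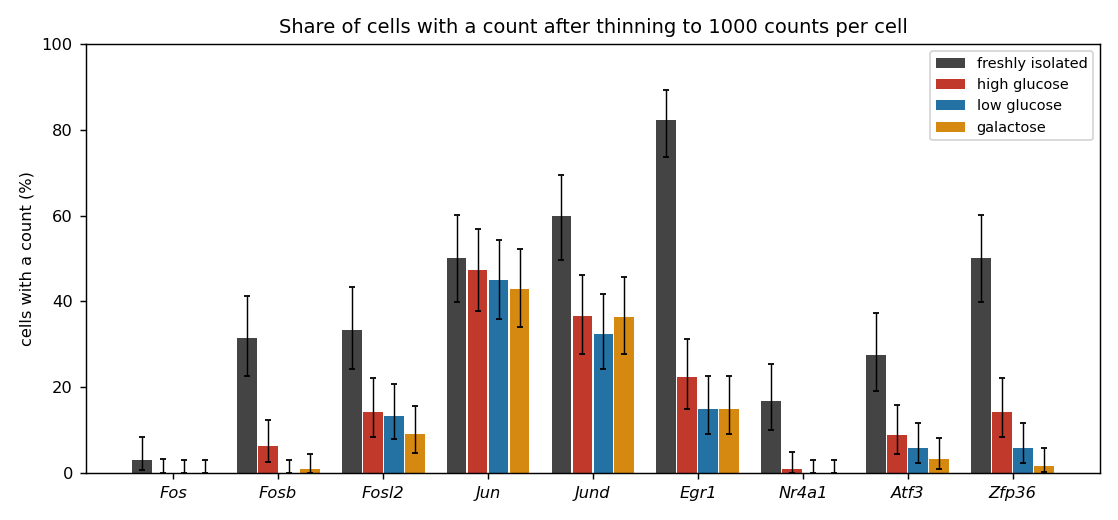
Share of cells with at least 1 count of each gene after thinning to 1000 counts per cell, in percent, with exact binomial 95% intervals, for the 4 conditions. For Fosb, Fosl2, Jund, Egr1, Nr4a1, Atf3 and Zfp36 the interval of freshly isolated cells lies above those of all 3 cultured groups, and the Jun shares lie between 42.98% and 50%.

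Freshly isolated cells often had counts of several of these genes. After thinning, 5 or more of the 9 genes were counted in 29 of 102 freshly isolated cells (28.43%) and in 0 of 112, 120 and 121 cells in high glucose, low glucose and galactose. None of the 9 was counted in 0, 19, 29 and 34 cells. Whether more cells held 5 or more than the shares of the single genes alone would give was not tested. Before thinning the summed level per 10000 counts ranged from 12.87 to 359.2 over freshly isolated cells, with a median of 55.91.

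Across single cells the genes were only weakly correlated. The median Pearson r over the 36 pairs was 0.092 in the 102 freshly isolated cells, against 0.0046 over all pairs of genes. In the high glucose, low glucose and galactose cells it was 0.106, 0.067 and 0.113 over 28 pairs each, against 0.029, 0.017 and 0.023. Fosb with Jun (0.3006), Egr1 with Zfp36 (0.296), Egr1 with Nr4a1 (0.292) and Nr4a1 with Zfp36 (0.281) had the highest values in freshly isolated cells. The lowest value there, before thinning, was -0.146 for Fosb with Fosl2. In cells thinned to 1000 counts the same 4 high pairs had 0.177, 0.137, 0.206 and 0.185, on the same log scale. The medians after thinning were 0.049 over 36 pairs in freshly isolated cells, -0.022 over 28 in high glucose, -0.011 over 15 in low glucose and -0.017 over 21 in galactose, since genes with no count left after thinning form no pair. Cells of 1 condition share a plate, and with counts this sparse values this weak are no finding on either scale.

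**Figure D4:**
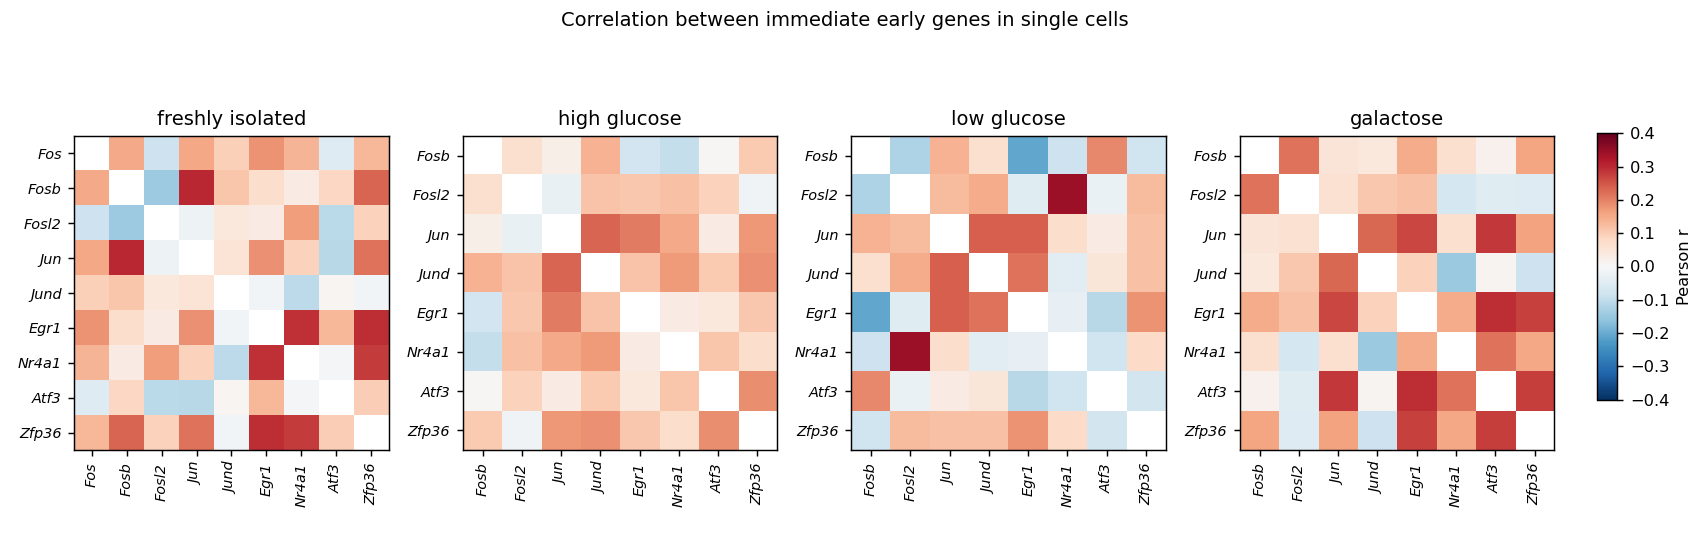
Pearson r of every pair of measured genes over the cells of each condition, on log2(counts per 10000 + 1). Most values lie near 0, and the highest in freshly isolated cells is 0.3006.

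The genes most like the summed immediate early genes over the 102 freshly isolated cells, among 1905 genes at 100 CPM or more, included heat shock genes. Btg2, an antiproliferative early response gene, had r = 0.483, followed by the chaperone genes Dnajb1 (0.4795), Hsph1 (0.421), Hspa1b (0.399) and Hspa1a (0.3503). Ptms, Gas1 and Gm9083 followed at 0.292, 0.291 and 0.2745, the last a gene model name whose reads may be shared with related copies. The 95th percentile over the 1905 genes was 0.152 and their median -0.02. Summed heat shock genes, which protect proteins under stress, had r = 0.395, 0.499, 0.326 and 0.374 with the summed immediate early genes in freshly isolated, high glucose, low glucose and galactose cells. Their summed level was 21217 CPM in freshly isolated cells, against 7955, 6873 and 6872 CPM in the cultured pools, lower as were the immediate early genes. Per 1000 spike-in counts it was 416.5 in freshly isolated cells and 479.1, 346.2 and 356.6 in high glucose, low glucose and galactose. The higher sum in high glucose did not hold for every heat shock gene. On this scale Hspa1a (ratio 0.253), Hspb1 (0.354), Hspa1b (0.413) and Dnajb1 (0.444) were at least 2-fold lower, against 2.78% of all genes. Hsp90aa1 (2.1), Hsp90ab1 (2.24) and Hspe1 (2.52) were at least 2-fold higher, against 80.9%. The part of the heat shock genes in the immediate early levels was not tested. The highest heat shock levels in single freshly isolated cells were 1703, 1427 and 1083 per 10000 counts. These same cells had immediate early levels of 214.8, 359.2 and 215.3, against a median of 55.91. How much of the r values in freshly isolated cells rests on these few cells was not tested. The summed heat shock and immediate early levels are both divided by the total gene count of the cell, and so share it.

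**Figure D5:**
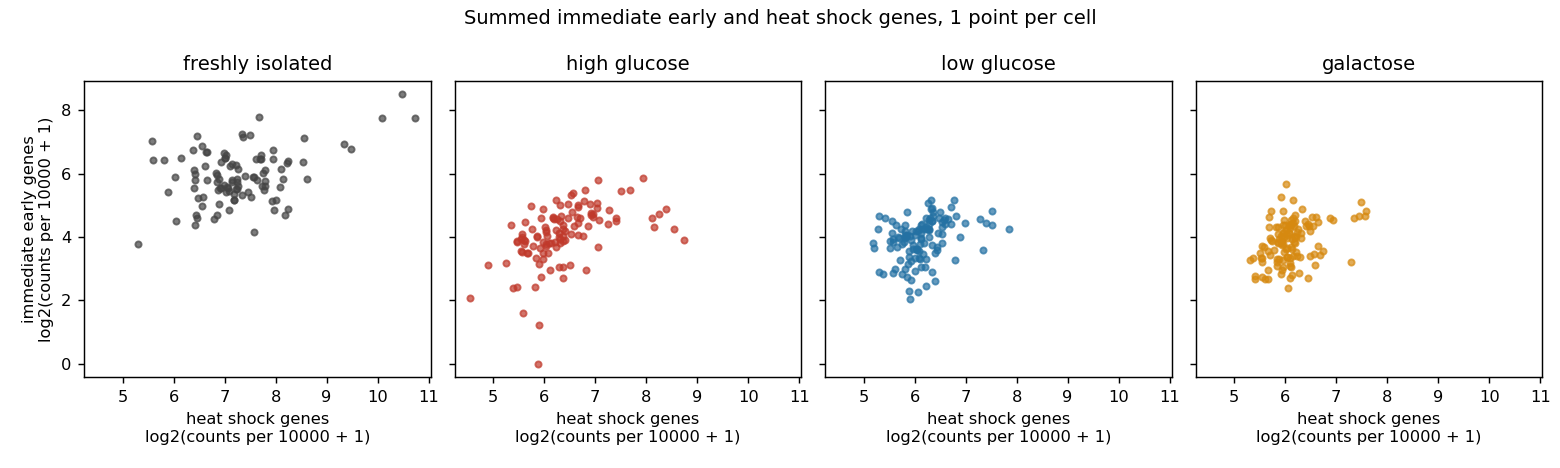
Summed heat shock genes against summed immediate early genes in single cells of each condition, both as log2(counts per 10000 + 1). Pearson r was 0.395, 0.499, 0.326 and 0.374 in freshly isolated, high glucose, low glucose and galactose cells.

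In cultured cells the summed level per 10000 counts was lower where the RNA yield was higher. Its r with log2 gene counts per spike-in count was 0.017 in freshly isolated cells and -0.307, -0.543 and -0.493 in high glucose, low glucose and galactose. Both measures contain the total gene count of the cell, and so share it.

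Further genes of the pathway were counted in high glucose over freshly isolated cells by the same rule, under which 12.4% of all genes were lower and 18.2% higher in CPM, and 2.78% were lower and 80.9% higher per spike-in count. Of the other immediate early transcription factors, 11 of 15 measured were lower and 0 higher in CPM (12.4% and 18.2% of all genes), and per spike-in count 0 were lower and 4 higher, against 80.9% of all genes higher. Their median log2 ratio in CPM was -1.62. Nr4a3, an orphan receptor related to Nr4a1, had 221.7 CPM in freshly isolated and 37.18 CPM in high glucose cells, and Cebpb, a bZIP factor of acute responses, had 1714 and 498 CPM. Fosl1, or Fra-1, a further Fos family member, had 1436 and 1026 CPM. Btg1, related to Btg2, had 1873 and 1231 CPM.

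Of the AP-1 partner genes, 3 of 6 measured were at least 2-fold lower and 0 higher in CPM (12.4% and 18.2% of all genes), and 0 were lower and 3 higher per spike-in count (2.78% and 80.9%). Fosl1 and Maff are counted here and also among the other immediate early transcription factors. The small Maf genes Mafk and Maff had 721.6 and 605.4 CPM in freshly isolated cells, against 180.3 and 160 CPM with high glucose. Atf7, a Creb-related factor that can bind Jun, had 330.9 and 243.3 CPM. Feedback inhibitors and RNA decay genes were lower in 6 of 13 and higher in 0 in CPM (12.4% and 18.2% of all genes), and per spike-in count 2 were lower and 7 higher (2.78% and 80.9%). Errfi1, an inhibitor of the EGF receptor, had 3140 and 415.7 CPM, and Trib1, a pseudokinase that promotes protein degradation, 1478 and 171.2 CPM. These are ratios of 0.132 (0.117 to 0.1497) and 0.116 (0.0956 to 0.14), and per spike-in count they were 0.406 and 0.355. Ppp1r15a, which reverses eIF2alpha phosphorylation, had 1545 and 730 CPM, and Socs3, an inhibitor of cytokine signalling, 200.6 and 33.8 CPM.

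Of the effectors induced early by such factors, 5 of 13 were lower and 2 higher in CPM (12.4% and 18.2% of all genes), and 1 was lower and 7 higher per spike-in count (2.78% and 80.9%). Cxcl1, a chemokine, had 1285 CPM in freshly isolated cells and 146.5 CPM in high glucose, and Pim1, a serine/threonine kinase, had 623 and 162.2 CPM. Plk2, a polo-like kinase, went from 200.6 to 992.6 CPM, a ratio of 4.95 (3.78 to 6.59). Ccn1, a matrix-associated signalling protein, had 1116 and 1414 CPM.

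Upstream kinases and factors that relay the signal were lower in 0 of 8 and higher in 1 in CPM (12.4% and 18.2% of all genes), and per spike-in count 0 were lower and 5 higher (2.78% and 80.9%). Map2k2, a kinase of the ERK pathway, was the 1 higher, from 45.76 to 138.6 CPM, while its relative Map2k1 had 285.1 and 147.6 CPM. Srf, which binds the CArG box, had 84.47 and 47.32 CPM, and Mapk8, which encodes JNK1, had 87.99 and 50.7 CPM. Heat shock genes were lower in 6 of 9 and higher in 0 in CPM (12.4% and 18.2% of all genes), and 4 were lower and 3 higher per spike-in count (2.78% and 80.9%). Hspa1a and Hspa1b, which encode inducible HSP70, had 3499 and 5695 CPM in freshly isolated cells, against 288.4 and 767.2 CPM with high glucose. Hsp90ab1 had 3991 and 2909 CPM and Hsp90aa1 3474 and 2383 CPM.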

How the data were processed

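Per the labels' protocols, muscle stem cells were sorted into 384-well plates and libraries made by a modified CEL-Seq2 protocol with a 6-base molecular identifier. The authors deposited unnormalised counts per gene and well with ERCC rows. The sources used here name no aligner, build, annotation or method for collapsing molecular identifiers. In the submitters' processing notes edgeR is named with no role. Conditions came from the deposited well sheet. Wells with at least 500 gene counts and 250 genes were kept. Counts were summed per condition. Ratios had exact conditional (Clopper-Pearson) 95% intervals for counting error only. Correlations used log2(counts per 10000 + 1). Alternatives were TMM factors (edgeR 4.0.16), median-of-ratios factors, spike-in scaling, equal weight per cell, thinning and left-out plate rows. Symbols matched 99.6% of identifiers. The genes and lists were chosen with earlier results of these data known. Named list genes were the 2 with most counts, then the 2 with intervals farthest from 1; likeness used the 8 highest r. The ratio code was checked on simulated data. SciPy 1.17.1 and pandas 2.3.3 were used.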

Additional observations from a re-analysis of the deposited data

How the results depend on the processing

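No paired analysis was possible because each condition was measured once, with no replicate. In high glucose over freshly isolated cells, the count of genes at least 2-fold lower was 7, and 4 with spike-in scaling, under which the Jund ratio turned to 1.16. Leaving out plate rows gave 7 to 8, with 8 without freshly isolated row C or high glucose row J. With TMM and with median-of-ratios factors Jun also passed, at 0.439 and 0.429. The median log2 ratio of all genes moved from 0.25 to -0.00071 with TMM, -0.036 with median-of-ratios factors and 1.87 with spike-in scaling, and the genes lower and higher went from 478 and 702 to 664 and 432, 706 and 416, and 107 and 3112. In low glucose over high glucose, 2 became 1 with TMM or median-of-ratios factors, with thinned cells or without wells holding other-type markers, 3 with equal weight per cell (Fosb added) or at a limit of 1.5-fold, and 4 at a minimum of 10 CPM; left-out rows gave 1 to 2, with 1 without high glucose row G, K or L or low glucose row A or F. In galactose over high glucose, 2 became 1 with TMM or median-of-ratios factors or a minimum of 2000 counts per well. The count was also 1 with mitochondrial genes out of the total or without wells holding other-type markers. It was 3 with spike-in scaling or at 1.5-fold, and 4 at 10 CPM. With equal weight per cell or thinned cells it stayed 2, with Atf3 in place of Egr1. Left-out rows gave 1 (without high glucose row L) to 3 (without high glucose row I or galactose row J). Without galactose row I or high glucose row H or J it was 2, again with Atf3 in place of Egr1. The median share of cells with a count in freshly isolated cells was 33.33%, and 21.57% at 500, 51.22% at 2000 counts and 63.73% with no thinning. In high glucose it was 14.29%, and 7.08% at 500 counts and 50.44% with none. In low glucose it was 5.83%, and 1.67% and 37.5%, and in galactose 3.31%, and 37.19% with none. Low counts limit Fos, with 4 counts, and Nr4a1 in culture.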

Other observations

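The effectors Cxcl1 and Pim1 and the transcription factor Nr4a3, which stood lower in high glucose than in freshly isolated cells, were lower again on plate 2, where plate and sugar cannot be told apart. Cxcl1 had 146.5 CPM in high glucose against 50.74 in low glucose and 74.67 in galactose, Pim1 had 162.2 against 48.44 and 35.37, and Nr4a3 had 37.18 against 4.04 and 6.88. Fosl1 did not share this pattern, with 1026 CPM in high glucose and 1075 and 1135 CPM on plate 2. These genes were chosen for this paragraph after their values were seen.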
